A study of Drosophila melanogaster with 9 samples.

Results

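RNA of sorted intestinal progenitors was set beside RNA of the whole intestine of the adult fruit fly, to see which genes mark the sorted cells and which mark the rest of the gut. The comparison used 4 of the 9 libraries of the series: the 3 control libraries of sorted progenitors and the 1 input library of whole intestines. The controls were titled esgTS, with the genotype given as WT and the treatment as Control. For each of them about 30000 to 50000 GFP-positive cells were sorted by flow cytometry from the intestines of 100 adult female flies, after 1 h in 1 mg/ml elastase at 27 °C. The input was the total lysate of dissected intestines, also labelled WT and Control, with all intestinal cells as its cell type. It served the study as the reference for immunoprecipitates of the RNA-binding protein Swm. All 4 libraries were depleted of ribosomal RNA. The age of the flies, and whether the 3 controls came from separate crosses, were not given in the labels, so the spread between the controls could be technical in part.

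The lining of the fly midgut is renewed by intestinal stem cells. They send the ligand Delta to their daughters, the enteroblasts, in which the receptor Notch then turns on genes of the Enhancer of split complex. Most daughters become enterocytes, large absorptive cells that secrete digestive enzymes, and others become enteroendocrine cells, which release peptide hormones. Stem cells and enteroblasts together are called progenitors and express the transcription factor gene escargot (esg). A dissected intestine also carries visceral muscle, trachea, nerves and parts of attached organs, and these enter a whole lysate but should be left behind by a sort.

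Genes were matched by name between the 2 count tables. A gene was compared if it had at least 5 CPM, its counts scaled to a common library total, in the input or in the mean of the controls, which 7668 genes did. It was called higher in progenitors if its CPM was at least 4-fold above the input in each of the 3 controls, and higher in the input if it was at least 4-fold below in each (log2 CPM on library totals, prior count 2). With 1 input library, another preparation and another way of counting, kind of sample and kind of library cannot be told apart, so all differences are descriptions with no test. The controls held 19428033 to 19962224 counts and the input 4615623. In bulk RNA, fewer cells of a type and less RNA per cell cannot be told apart either.

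By that rule 1179 of the 7668 genes (15.4%) were higher in progenitors and 1103 (14.4%) higher in the input. As percentile ranks of CPM within each library, 691 genes (9.01%) stood at least 25 points higher in all 3 controls and 1019 (13.3%) at least 25 points lower. The median log2 ratio of control to input over all genes was 0.64, and it was 0.62, 0.65 and 0.64 for the 3 controls taken singly. A gene list is read below against such medians, not against 0.

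Many calls toward progenitors went with the way of counting. The gene length deposited with the input spans introns, and that with the controls covers exons only. In the BDGP6 annotation, 327 genes with at least 20 CPM in the controls had all their exonic bases inside the spans of other genes, and 318 of these (97.2%) had 0 counts in the input. Among 3800 such genes with under 10% of their exonic bases inside another span, 2 (0.0526%) had 0 counts. The share at 0 was 196 of 199 where the other gene lay on the same strand and 116 of 121 where it lay on the opposite strand only. Both Swm immunoprecipitates, counted in the same table, had 318 and 317 of the 327 at 0. All 12 named genes with the largest ratios toward progenitors had all or nearly all exonic bases inside other spans: RpL41, sesB, Fim, w, mira, RpS6, Aldh, Rel, Ip259, LamC, nop5 and vig. RpS6, a ribosomal protein gene, had 1938, 2915 and 2750 CPM in the controls and 0.433 CPM in the input, with 97.6% of its exonic bases inside another span, while ribosomal protein genes counted separately differed far less. Genes wholly inside other spans could hardly be read in the input, and the counts and medians of gene lists below leave them out.

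**Figure D1:**
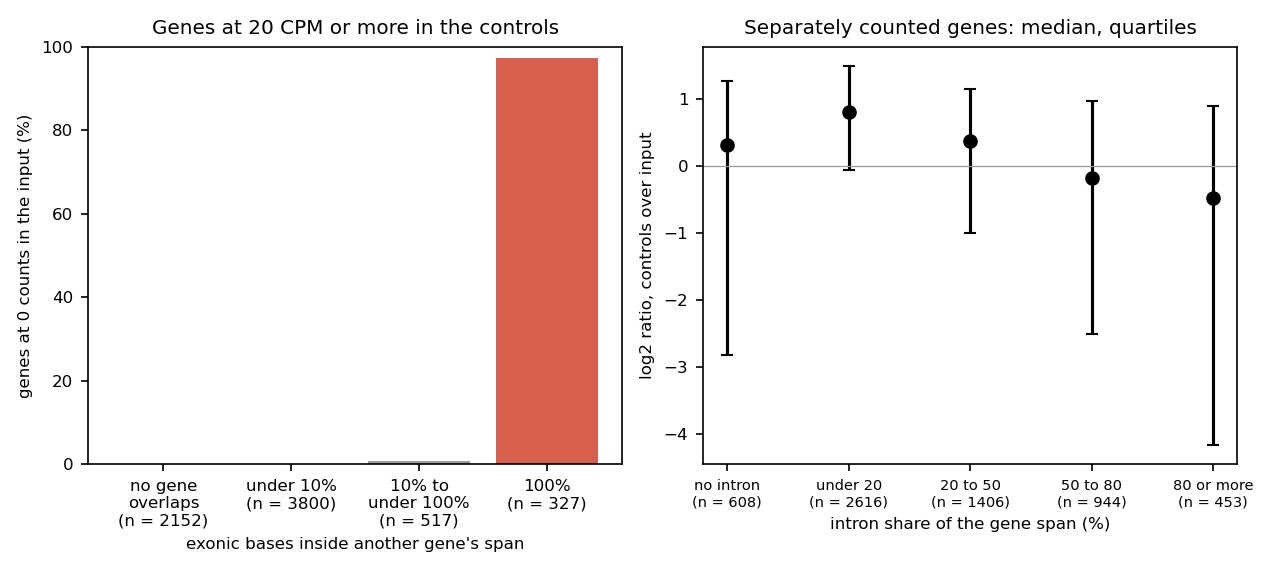
Left, the percentage of genes with 0 input counts among genes at 20 CPM or more in the controls, by the share of their exonic bases inside another gene's span; the first class is part of the next one. Right, the median log2 ratio of controls to input by intron share of the gene span, with bars to the quartiles; genes wholly inside other spans were at 0 in 97.2%, and the median is 0.32 for genes with no intron, 0.81 for genes with some intron under 20% and -0.47 at 80% or more.

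The results below therefore rest on the 6027 genes with under 10% of their exonic bases inside another gene's span, called separately counted here, a limit chosen after the data were seen. Of these, 475 (7.88%) were higher in progenitors and 995 (16.5%) higher in the input, with a median log2 ratio of 0.47. Counts of list members below are to be read against these shares, and list medians against 0.47. With ranks taken over all genes compared, 286 (4.75%) stood at least 25 points higher and 902 (15%) at least 25 points lower in all 3 controls. With ranks taken within the separately counted genes alone, the counts were 483 and 772. The ratio also moved with intron share, but not in 1 direction throughout. The median was 0.32 for the 608 genes with no intron, 0.81 for the 2616 with some intron under 20% of the span, and -0.47 for the 453 with 80% or more. The share higher in the input was 24.8%, 9.52% and 31.3% in these classes, and the part of the counting in this was not tested. Genes with under 20% intron, those with none included, numbered 3224, of which 273 were higher in progenitors and 400 higher in the input, at a median of 0.73. The progenitor identity list described below has 1 member in that class, esg, the enterocyte transcription factor list 1 and the basement membrane list 2. The lists of receptor signalling, enteroendocrine, tubule, and septate junction and brush border genes have none. Among the separately counted genes the median SD of log2 CPM over the 3 controls was 0.34. Pairs of controls had 343, 406 and 459 genes at least 4-fold apart, against 1825 to 1930 for each control and the input.

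**Figure D2:**
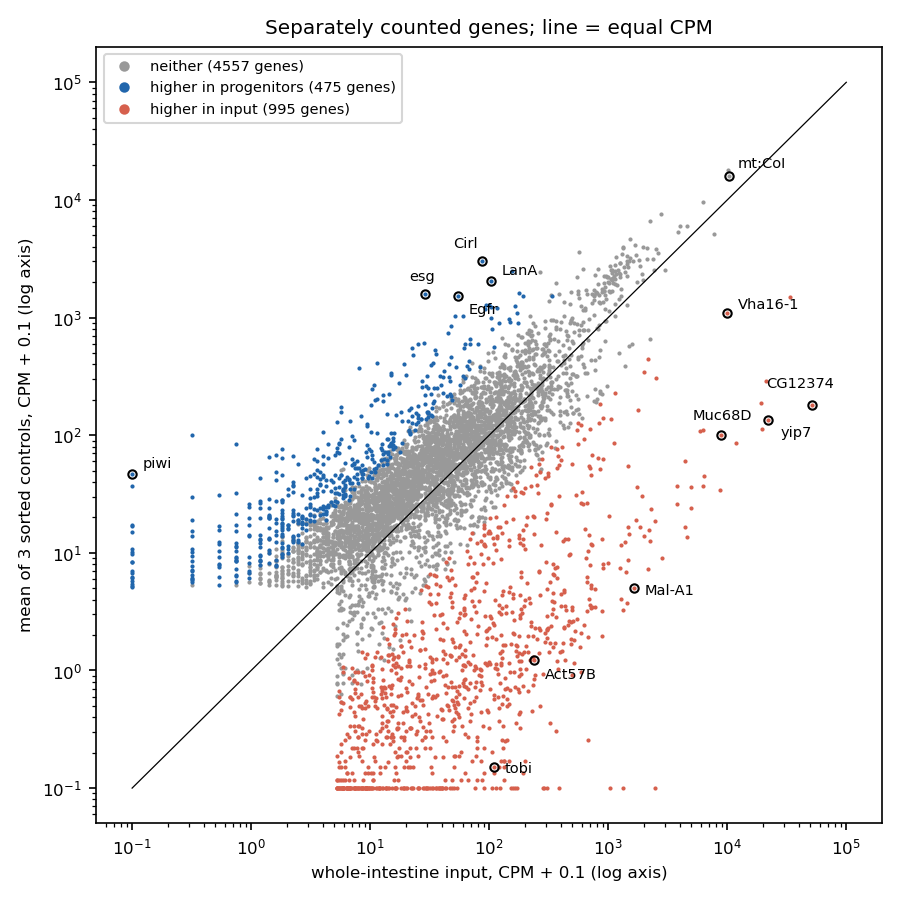
Each point is a separately counted gene, with its CPM in the input on the horizontal axis and its mean CPM over the 3 sorted controls on the vertical axis, both with 0.1 added and on log axes; 475 genes are called higher in progenitors and 995 higher in the input. The protease genes lie far below the line of equal CPM, and esg, Cirl, Egfr and LanA far above it.

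The marker genes of progenitors were high in every control and low in the input. esg (2L, 15333866 to 15336138, BDGP6), a single-exon gene for a Snail-family repressor that keeps progenitors undifferentiated, had 1717, 1639 and 1427 CPM in the controls and 29.0 CPM in the input. Sox21a (3L, 14103481 to 14108118), a transcription factor of stem cells and enteroblasts, had 383, 400 and 425 CPM against 19.1 CPM. Delta (Dl; 3R, 19302731 to 19326217), the Notch ligand of the stem cell, had 453, 156 and 367 CPM against 19.7 CPM. Every control lay far above the input for all of these genes, and for Delta control 2 lay below the other controls. The ratios of mean CPM to the input were 54.9 for esg (exact 95% interval 46.3 to 65.5), 21.1 for Sox21a (17.1 to 26.4) and 16.5 for Dl (13.5 to 20.6). These intervals cover counting error only. In ranks, esg stood at percentile 98.3 to 98.7 in the controls and at 55.5 in the input.

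The sum over the 5 separately counted progenitor markers was 2771 to 3188 CPM in the controls and 170 CPM in the input. The other 2 markers, mira, a scaffold for asymmetric division of stem cells, and spdo, a Notch regulator, were at 0 in the input and lie wholly inside other gene spans. The 5 enterocyte markers summed to 307 to 348 CPM in the controls and 1164 CPM in the input, and most of the controls' sum was Myo31DF with 329, 296 and 322 CPM. Over the 3 of them that were separately counted, which leaves out Myo31DF, the sums were at most 14.2 CPM in a control and 528 CPM in the input. For the 9 enteroendocrine markers the sums were 6.51 to 12.5 CPM against 180 CPM, with AstA, Mip and Dh31 at 0 in all 3 controls. The sorted libraries thus held little of these 9 markers. In the progenitor sum esg was the largest part in every control. These libraries were titled esgTS and sorted for GFP, so a high level of esg may be set by the sort and is no separate check of it.

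Of 18 genes listed for progenitor identity, 12 were compared and separately counted. In this list 8 of 12 were higher in progenitors and none in the input, against 7.88% and 16.5% of all separately counted genes, and its median log2 ratio was 2.85 against 0.47. The 8 were esg, Sox21a, Dl, chn, hdc, cher, klu and Sox100B. klu, a zinc-finger gene of enteroblasts, had 305, 197 and 250 CPM against 34.4 CPM in the input. cher, which encodes the actin cross-linker filamin, had 503, 595 and 677 CPM against 80.8 CPM. Sox100B, a Sox-family factor gene, had 330, 378 and 381 CPM against 67.8 CPM. In these 3 genes all controls exceeded the input, at ratios of 7.28, 7.32 and 5.36, smaller than that of esg.

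Control 2 was the lowest control for some members of the list. Tet, a gene for a DNA and RNA dioxygenase, had 4279, 492 and 2523 CPM in controls 1, 2 and 3 and 270 CPM in the input, so that control 2 missed the 4-fold rule. hdc, headcase, a gene kept on in gut progenitors, had 1941, 547 and 1180 CPM against 104 CPM and passed. Without control 2, 9 of 12 members passed. The transcription factor genes ttk, peb and lola, widely used repressors and zinc-finger factors, had ratios of mean CPM of 1.85, 1.63 and 1.15 and stayed under the rule. zfh2, a zinc-finger homeodomain gene with 18.7% of its exonic bases inside another span, stood at 2181, 999.8 and 1419 CPM against 36.6 CPM. With DESeq2 size factors, which lowered all ratios by about the same amount, 5 of the 12 passed and the list median was 2.21 against -0.21 for all separately counted genes.

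Genes of the Notch pathway followed, with 6 of 14 (42.9%) higher in progenitors and none higher in the input. Their median log2 ratio was 1.89. Over all separately counted genes the shares were 7.88% and 16.5% and the median 0.47. The receptor gene N had 588, 472 and 759 CPM in the controls and 28.2 CPM in the input. Its ligand gene Dl is given above. Among targets, the basic helix-loop-helix repressor genes E(spl)mbeta-HLH and E(spl)m3-HLH had 374, 499 and 358 CPM against 11.3 CPM and 611, 669 and 377 CPM against 22.3 CPM. In N and in both of these targets the lowest control exceeded the input more than 10-fold, and in Dl it did not. E(spl)malpha-BFM, a Bearded-family gene of the same complex, stood at 409, 465 and 241 CPM against 8.02 CPM, and E(spl)mgamma-HLH at 15.2 times the input in the mean of the controls. Among separately counted genes, 5 neighbours higher in progenitors lay in the Enhancer of split complex (3R, 25999851 to 26023127). Kaz-m1, which lies among them but is not separately counted, was higher in the input, at 26.8 CPM in the mean of the controls and 300.3 CPM in the input. The general machinery of the pathway did not share these ratios. Su(H), the DNA-binding partner of Notch, had a ratio of mean CPM of 4.45, kuz, the protease that cleaves the receptor, 3.61, and the gamma-secretase gene aph-1 2.53, and none of them passed in all 3 controls. Psn, the catalytic subunit of gamma-secretase, was 1.08-fold lower in the controls.

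Of 24 genes of receptor signalling by growth factors and cytokines, 3 (12.5%) were higher in progenitors and 2 (8.33%) higher in the input, at a median of 0.78. These shares are near those of all separately counted genes, 7.88% and 16.5%, for so short a list. Egfr, the epidermal growth factor receptor gene, had 1622, 1413 and 1573 CPM in the controls and 54.8 CPM in the input, a ratio of 28.0. Pvf2, a ligand of the PDGF- and VEGF-type receptor, had 23.4, 24.4 and 29.8 CPM against 3.03 CPM, and btl, an FGF receptor gene that also marks trachea, 43.6, 26.9 and 17.8 CPM against 3.25 CPM. All controls lay above the input for these 3 genes. On the other side, the FGF receptor gene htl and the ligand gene Pvf1 were higher in the input, at 10.6 and 60.4 CPM, with at most 0.206 and 1.80 CPM in a control. dome, hop and Stat92E, the receptor, kinase and transcription factor of the JAK/STAT pathway, had ratios of 3.11, 1.69 and 2.43 and did not pass.

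**Figure D3:**
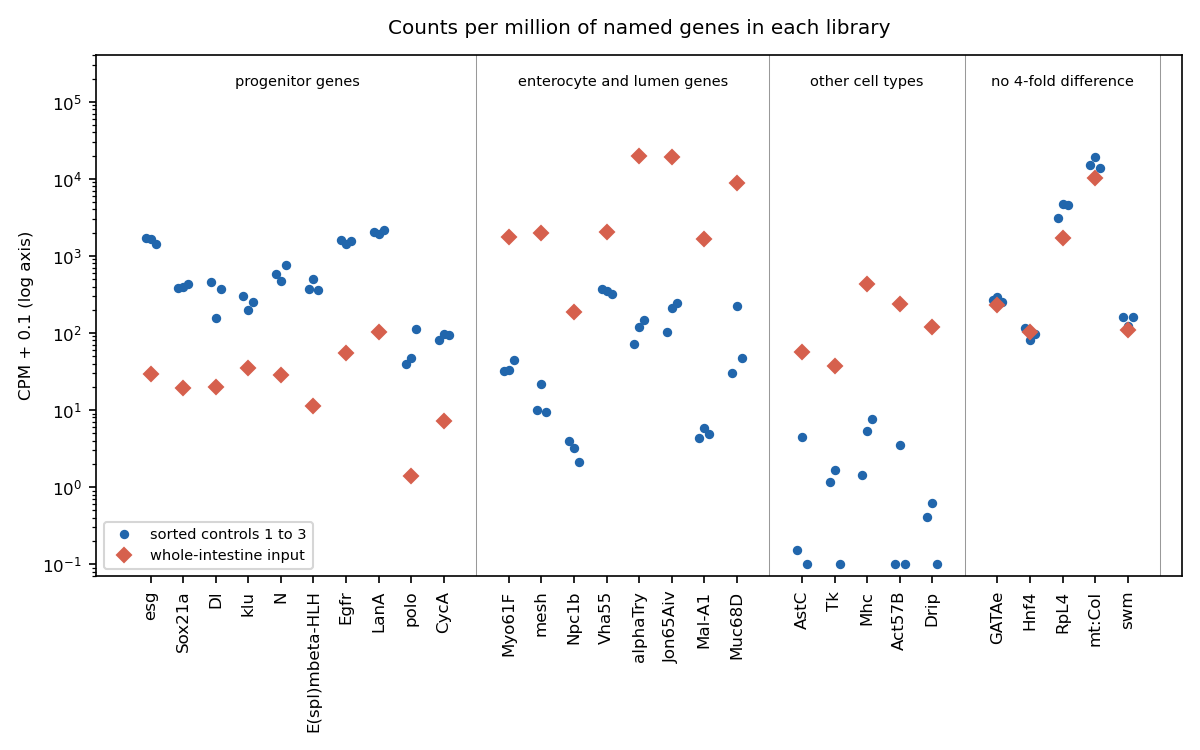
CPM plus 0.1 on a log axis for 28 genes, with circles for the 3 sorted controls and a diamond for the whole-intestine input. The 28 genes were picked by hand with their values known, so the side on which each lies was set by the choice. The 10 on the left, headed progenitor genes, have every control above the input. The enterocyte, lumen, hormone, muscle and tubule genes shown have every control below it, and the genes on the right do not pass the 4-fold rule. Members of the same lists that did not pass, such as ttk, peb, Tm1 and Msp300, are not shown.

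Cell cycle genes leaned toward progenitors. Of 33 compared, all 33 had a mean log2 ratio above 0 on library totals, 17 passed as higher in progenitors and none as higher in the input, and the list median was 2.62 against 0.47. polo, a mitotic kinase, had 39.0, 47.2 and 111 CPM in the controls and 1.30 CPM in the input. BubR1, of the spindle checkpoint, had 57.6, 81.7 and 91.1 CPM against 1.73 CPM. CycA, a mitotic cyclin, had 82.0, 98.0 and 92.6 CPM against 7.15 CPM. For all of these the controls stood more than 10-fold above the input. fzy, an activator of the anaphase-promoting complex, had 17.2, 18.1 and 14.8 CPM and no input count, at least 25.7-fold higher against a floor of 3 input counts.

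PCNA, the sliding clamp of DNA replication, had 33.1, 48.7 and 75.1 CPM against 7.58 CPM and passed. Of the helicase subunit genes compared, dpa, Mcm5 and Mcm3 passed, at ratios of 9.15, 7.87 and 7.15. Mcm2 and Mcm6, of the same helicase, had ratios of 5.14 and 4.28 but missed the rule in a control. The G1 regulators CycD, CycE and E2f1 had ratios of 2.85, 2.22 and 1.14, and E2f1 turned to the input with TMM or DESeq2 factors. stg, the phosphatase gene that starts mitosis, stood low in the controls, at 13.6, 9.88 and 19.9 CPM, against 1.73 CPM. The list count was 12 of 32 with TMM factors and 10 of 32 with DESeq2 size factors, 22 of 33 without control 1, and 13 of 22 among genes with under 20% intron.

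Genes of the basement membrane and of integrin adhesion gave 6 of 15 (40%) higher in progenitors and 2 (13.3%) higher in the input. Their median was 1.51. Over all separately counted genes the shares were 7.88% and 16.5% and the median 0.47, so the share higher in the input was near that of all. Laminin genes led. LanA, the alpha chain of the main laminin, had 2035, 1934 and 2136 CPM in the controls and 103 CPM in the input. LanB1 and LanB2, its beta and gamma chains, had 912, 743 and 899 CPM against 47.4 CPM and 311, 293 and 360 CPM against 30.1 CPM. wb, an alternative alpha chain, had 140, 149 and 151 CPM against 25.3 CPM. The controls were close to each other and all lay above the input, at ratios of 19.8, 17.9, 10.7 and 5.80. The integrin alpha gene mew and the talin gene rhea, which ties integrins to actin, had ratios of 6.42 and 4.52, and the integrin beta gene mys had 2.85 and did not pass. Another alpha integrin gene, if, known from muscle attachment, and the nidogen gene Ndg were higher in the input, at 24.9 and 17.1 CPM with at most 0.257 and 0.772 CPM in a control. With DESeq2 size factors the split was 3 and 3 of 16.

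Some of the largest ratios toward progenitors among separately counted genes lay outside these lists, in genes picked by that ratio after the data were seen. piwi, a gene of small-RNA silencing known best from the germline, had 53.7, 35.8 and 51.1 CPM in the controls and no count in the input, at least 72.1-fold higher. The ovary markers vas and nos were at 0 in all 3 controls. The 4 ovary and germline markers summed to 0.356 to 2.45 CPM there and to 0.650 CPM in the input, and only 1 of them is separately counted. The origin of the piwi counts was not tested. Cirl, a latrophilin-type adhesion receptor gene, had 3640, 2691 and 2804 CPM against 87.1 CPM. pon, a partner of numb at asymmetric division, had 68.9, 67.1 and 68.5 CPM against 1.52 CPM. The ligand gene Wnt5 had 23.9, 31.3 and 41.6 CPM against 3 input counts, a ratio of 49.7 with an exact interval of 17.0 to 241. In piwi, Cirl, pon and Wnt5 the lowest control stood well above the input. Of 14 genes of progenitor RNA granules, only lin-28 and brat, RNA-binding translational regulators, passed as higher in progenitors, at ratios of 31.9 and 9.83. This share of 14.3% stood against 7.88% of all separately counted genes, and the list median of 0.88 was near their 0.47. bru1, another RNA-binding protein gene, went the other way, with at most 0.566 CPM in a control and 85.6 CPM in the input, and 94.4% of its span was intron.

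Digestive enzymes made the greatest contrast toward the input. Of 28 protease genes compared, 27 were higher in the input and none in progenitors, with a median log2 ratio of -7.09. The listed proteases took 11.2% of all input counts and 0.0725% to 0.183% of the counts of a control. alphaTry, a trypsin gene, had 71.8, 119 and 149 CPM in the controls and 19702 CPM in the input. Jon65Aiv, a chymotrypsin-like protease gene of the Jonah family, had 104, 213 and 246 CPM against 19141 CPM, and yip7, its neighbour, had 82.1, 188 and 130 CPM against 21906 CPM. For each of these the input lay far above the highest control. The exception in the list was cathD, a lysosomal aspartic protease gene, at 223, 270 and 241 CPM against 222 CPM. Since many Jonah and trypsin genes are near-identical, reads may be shared out among them, and single members are less certain than the sum.

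The protease genes were also counted in the controls, and their summed share was highest in control 3. Jon99Ciii had 44.6, 82.9 and 207 CPM in controls 1, 2 and 3, and Jon25Biii 7.63, 26.7 and 130 CPM. Whether these counts came from the sorted cells or from RNA of other cells in the suspension was not tested. Carbohydrate and fat digestion gave 13 of 14 genes higher in the input, at a median of -7.52. Amy-p, an amylase gene, had 6.20, 23.9 and 18.9 CPM against 1836 CPM, and Mal-A1, a maltase gene, had 4.17, 5.71 and 4.81 CPM against 1647 CPM. tobi, a glucosidase gene known to respond to dietary sugar and insulin signalling, had 3 counts over the 3 controls and 109 CPM in the input. In all of them the input exceeded every control. Of 18 genes of the peritrophic matrix and mucins, which line the gut lumen, 8 were compared and separately counted. All 8 were higher in the input, against 16.5% of all separately counted genes. In 4 of the 8 no control had a count, so these entered the comparison through the input alone. Muc68D had 29.8, 224 and 47.8 CPM in the controls against 8917 CPM.

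Many genes higher in the input sat side by side in the order of separately counted genes, in which other genes are passed over. Of the 995, 58.0% had a neighbour among separately counted genes with the same call. The share was 24.4% of the 475 genes higher in progenitors, a smaller set in which neighbours are fewer by number alone. The longest runs were the trypsin cluster (2R, 11336840 to 11357650), where 10 trypsin genes from lambdaTry to iotaTry and a tRNA gene were all called, and 11 genes without names of their own (3R, 25273837 to 25302317). Of the maltase genes, 7 lay in a run of 10 (2R, 8439395 to 8552290) and 4 Jonah genes with yip7 in a run of 7 (3L, 6033199 to 6054443). Family members in a cluster are close copies, so these runs are not independent differences. A name of their own was lacking for 50.7% of the genes higher in the input and 31.2% of those higher in progenitors, against 35.4% of all separately counted genes.

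Absorptive functions of enterocytes gave 18 of 21 genes higher in the input and a median of -5.95. Myo61F, a myosin of the brush border, had 31.5, 32.6 and 44.2 CPM in the controls and 1757 CPM in the input. mex1, an enterocyte marker of unknown biochemical role, had 5.90, 4.58 and 8.92 CPM against 341 CPM. Npc1b, needed for sterol uptake, had 3.81, 3.14 and 2.00 CPM against 187 CPM. The input stood far above every control in these genes. The iron-storage gene Fer2LCH, the droplet protein gene Lsd-2 and the exocyst gene Sec15 did not pass, with 1372, 854 and 17.8 CPM in the input and mean control levels at 3.57-fold lower, 1.62-fold lower and 1.51-fold higher. mesh, of the smooth septate junction of enterocytes, had 9.86, 21.7 and 9.42 CPM against 1985 CPM, while the general polarity genes scrib, cora and dlg1 stayed within the rule.

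Enterocyte transcription factors had unequal ratios. GATAe, a midgut GATA factor gene, had 271, 292 and 250 CPM in the controls and 231 CPM in the input, and Hnf4, a nuclear receptor gene of lipid metabolism, 116, 80.9 and 97.7 CPM against 102 CPM. exex, cad, Ptx1 and lab, homeobox genes with roles in gut patterning, had mean control levels 1.15-fold, 1.16-fold, 1.19-fold and 1.41-fold below the input. The input lay within the range of the controls for Hnf4, Ptx1 and exex and just outside it for GATAe, cad and lab. pdm2, bab2, odd and ham were higher in the input, with pdm2, a POU factor gene next to nub, at 71.3 CPM against at most 0.206 CPM in a control. Of the 12 factors compared, 4 (33.3%) were higher in the input and none in progenitors, and the list median was -0.30. Over all separately counted genes the shares were 16.5% and 7.88% and the median 0.47. nub itself, the enterocyte identity gene, had 4.53, 3.45 and 0.150 CPM against 125 CPM, with 72.1% of its exonic bases inside another span.

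Genes of the vacuolar proton pump leaned toward the input, less far than the enzymes. Of 17 subunit genes 9 were higher in the input, none in progenitors, and 16 had more CPM in the input than in the mean of the controls, at a list median of -2.27. Vha55, a subunit of the catalytic head, had 371, 345 and 317 CPM against 2013 CPM, and Vha16-1, of the membrane ring, had 1521, 777 and 977 CPM against 9953 CPM. In both the input lay above all controls. Vha100-1 was the exception, at 236, 198 and 222 CPM against 76.3 CPM. Its relative Vha100-4 had at most 4.51 CPM in a control and 231 CPM in the input. The pump is strong in the acid-secreting copper cells and in the Malpighian tubules, and tubule genes were also in the input: 7 of 8 were higher there, with the water channel gene Drip at 0.305, 0.515 and 0 CPM in the controls and 120 CPM. The 3 separately counted tubule markers of 4 summed to 4.77 CPM in the input and to 0 in every control, and their part in the pump's ratio was not tested. With TMM factors 14 of the 17 pump genes were higher in the input and with DESeq2 size factors 15.

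**Figure D4:**
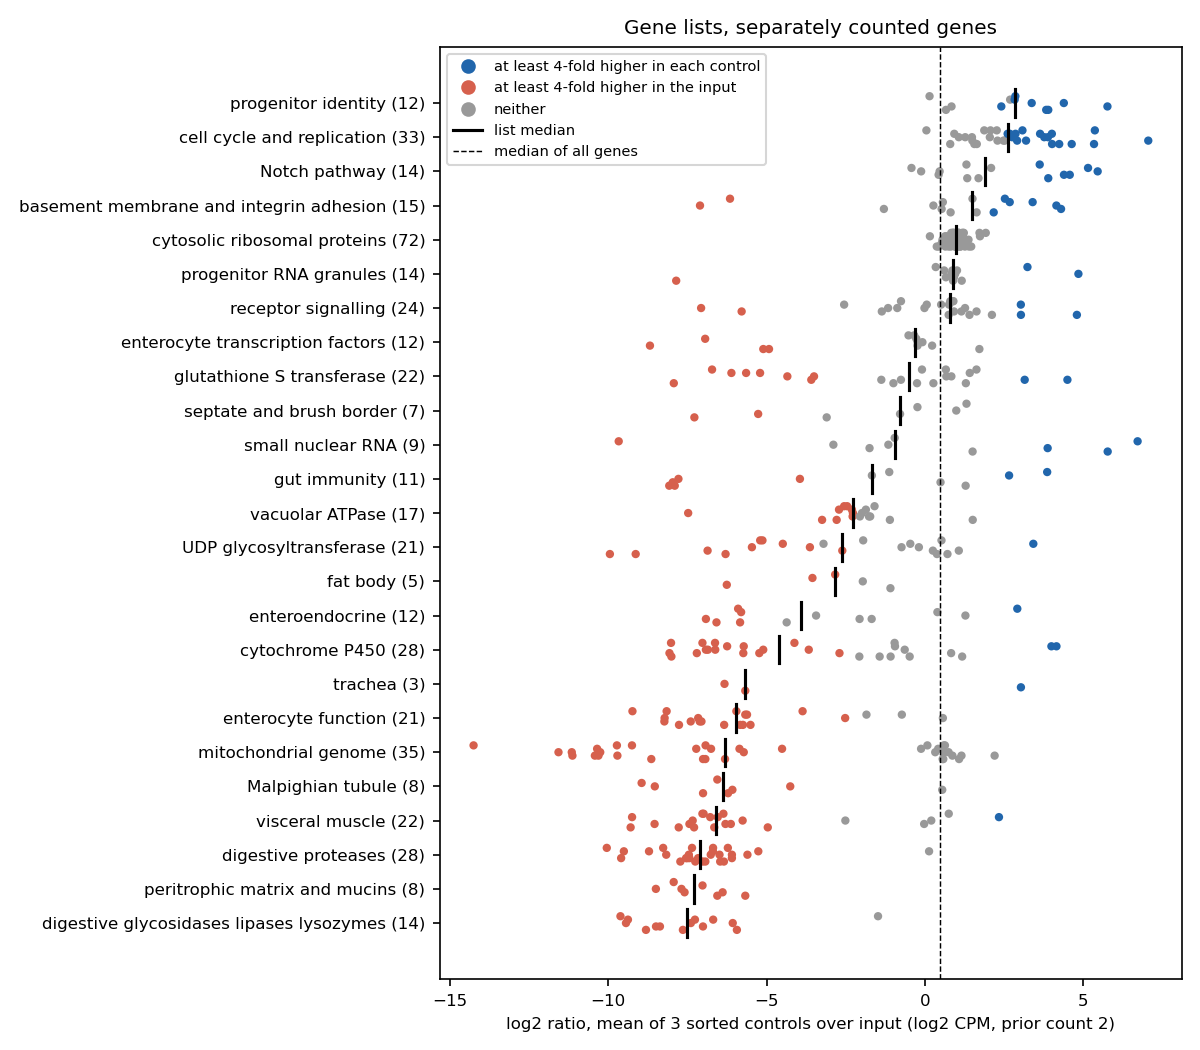
Each point is a separately counted gene, placed by the log2 ratio of the controls' mean to the input, in lists ordered by their medians with the number of genes in brackets. Progenitor identity, cell cycle and Notch genes lie to the right of the median of all genes (0.47), and digestive enzymes, mucins and visceral muscle genes at the left, around -6.6 to -7.5.

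Of 12 enteroendocrine genes compared, 5 (41.7%) were higher in the input and 1 (8.33%), the ion channel gene Ih, in progenitors, at a median of -3.90. AstC, an allatostatin gene, had 0.0508, 4.43 and 0 CPM in the controls and 56.1 CPM in the input. Tk, the tachykinin gene, had 1.07, 1.54 and 0 CPM against 37.5 CPM, and NPF 0, 0.721 and 0 CPM against 13.4 CPM. The input exceeded all controls in these genes. AstA had no control count and 11.9 CPM in the input, at least 235-fold lower in the controls against a floor of 3 counts over the group. Genes of general peptide processing differed less: Phm and Pal1, which amidate peptides, had 44.8, 66.2 and 59.0 CPM against 42.5 CPM and 21.6, 25.1 and 25.1 CPM against 9.75 CPM. pros, the enteroendocrine fate gene, had 3.51, 4.43 and 8.27 CPM against 16.5 CPM and did not pass. Orcokinin, with 1.68, 24.5 and 6.41 CPM against 27.5 CPM, came close to the input in control 2. AstC and Orcokinin were both highest in control 2.

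Contractile genes of visceral muscle gave 17 of 22 higher in the input and 1, Tsf2, in progenitors, at a median of -6.60. Tsf2 is a transferrin gene known from septate junctions, not from contraction. All but 2 of the 22 have 20% intron or more, and of those 2 Act87E was higher in the input and Tsf2 in progenitors; the part of intron counts in the list's ratio was not tested. Mhc, the muscle myosin heavy chain gene, had 1.32, 5.25 and 7.51 CPM in the controls and 429 CPM in the input. Act57B, a muscle actin gene, had 0, 3.40 and 0 CPM against 240 CPM, and sls, which encodes a titin-like protein, had 7.27, 3.76 and 11.5 CPM against 375 CPM. Every control lay far below the input. Among members that did not pass, Tm1, a tropomyosin gene with cytoplasmic forms, had 1215, 642 and 832 CPM against 513 CPM. Msp300, a nesprin gene that did not pass either, had 8399, 1825 and 5654 CPM against 3844 CPM. Whether use of these genes by other cells gave these counts was not tested. The 8 muscle markers therefore summed to 663 to 1231 CPM in the controls, nearly all of it Tm1, and to 1897 CPM in the input. Fat body genes were higher in the input in 3 of 5, at a median of -2.83, and the yolk protein gene Yp2 had 5.75, 8.08 and 4.46 CPM against 23.4 CPM. Markers of hemocytes, neurons and trachea had small sums, not all of them lower in the controls. Those of hemocytes summed to 0.351 to 3.55 CPM in the controls and 4.98 CPM in the input. Those of trachea summed to 17.8 to 43.6 and 7.15 CPM, with every control above the input. All 5 neuron markers summed to 18.1 to 48.7 and 11.5 CPM, also with every control above the input. The 4 of them that were separately counted summed to 1.60 to 4.94 and 11.3 CPM.

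Immune genes went both ways. The receptor gene PGRP-LC, which senses bacterial cell wall, had 191, 170 and 188 CPM in the controls and 28.8 CPM in the input, and upd2, a cytokine gene, had 23.1, 32.1 and 36.7 CPM against 1.95 CPM. The secreted amidases that degrade cell wall went the other way, with PGRP-SC2 at 0.0508, 2.06 and 9.27 CPM against 338 CPM and PGRP-SC1b at 0, 0.875 and 0.551 CPM against 110 CPM. DptA, a gene for the antibacterial peptide diptericin, had no control count and 29.9 CPM in the input, at least 589-fold lower in the controls. The controls stood on 1 side of the input in every one of these genes. The cytosolic members Dredd and PGRP-LE, at 30.6, 35.6 and 32.2 CPM against 23.2 CPM and 19.3, 27.3 and 17.1 CPM against 45.5 CPM, did not pass. Of 11 list members, 2 (18.2%) were higher in progenitors and 5 (45.5%) in the input, against 7.88% and 16.5% of all separately counted genes. Rel, the transcription factor of the pathway, had 294, 404 and 322 CPM in the controls but lies inside other spans and could not be read in the input.

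Genes used by all cells gave a scale for these ratios. None of 72 ribosomal protein genes passed in either direction, and on library totals all had more CPM in the mean of the controls than in the input, at a median log2 ratio of 0.98 and a range from 0.16 to 1.92. Relative to all separately counted genes their median was higher under each scaling, at 0.51 against -0.02 with TMM factors and 0.34 against -0.21 with DESeq2 size factors. They took 12.2% to 18.1% of the counts of a control and 7.70% of those of the input. swm (2L, 19493251 to 19497978), the gene of the RNA-binding protein the study is named for, had 159, 122 and 160 CPM against 108 CPM. Act5C, the main cytoplasmic actin gene, had 5586, 4690 and 5078 CPM against 7671 CPM, with every control a little below the input. Among separately counted protein-coding genes, which leaves out ribosomal RNA, eEF1alpha1, a translation elongation factor gene, took the most counts in each control and took position 7 in the input, behind CG12374, yip7, alphaTry, Jon65Aiv, Jon65Aiii and mt:CoI. CG12374 had 141, 220 and 180 CPM in the controls and 51609 CPM in the input.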

How the data were processed

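Per the labels' protocols, RNA was taken with TRIzol LS and rRNA-depleted libraries were made with the Ovation SoLo kit. Raw read counts of each gene were deposited with its length, 1 table for the sorted progenitors and 1 for the immunoprecipitates and input. Tools in the submitters' processing notes are STAR 2.7.3a, cutadapt 2.9, Subread 2.0.0 with featureCounts, SAMtools 1.10 and DESeq2. Build, annotation and strand setting: not given in the sources used here. Each table has 17806 named genes, per the file headers, and a row without a gene name, with 0 counts in these 4 libraries, was left out. A further 9 per-sample columns of the authors' comparison tables were not used.

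From these counts, log2 CPM (prior count 2, library totals), ratios and percentile ranks were computed with Python 3.11.15, pandas 2.3.3 and numpy 2.4.6. Gene spans came from the BDGP6 annotation: 17744 genes matched, 731 by synonym, and 99.7% of these had a span equal to the input table's length. The rule was checked on counts simulated with the same way of counting in all libraries. That check cannot show how the rule behaves where the ways of counting differ. Alternatives used TMM (edgeR) and DESeq2 size factors in R. A gene at 0 was set against 3 counts (0.650 CPM in the input, 0.0508 CPM over the controls), and ratios of counts have exact 95% intervals.

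The libraries, the 33 gene lists and the markers were chosen with earlier results of these data known. Genes named by rule were the progenitor identity list, swm, the 12 largest ratios each way past the 4-fold rule with at least 20 CPM and a name of their own, the 6 each way among genes of equal length, and 3 members of each list with the highest mean CPM. All other genes were named after their values were seen.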

Additional observations from a re-analysis of the deposited data

How the results depend on the processing

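Both 4-fold counts stayed within 1.5 times under TMM factors, DESeq2 size factors, totals without mitochondrial and RNA-class genes, removal of the intron trend and a prior count of 0.5, settings not run for the rank counts. All 4 counts did so with a filter at 1 CPM, either immunoprecipitate in place of the input and the libraries labelled swm RNAi in place of the controls. Leaving out a control in turn gave 1261 to 1313 genes 4-fold higher in progenitors and 1130 to 1165 higher in the input, and by rank 759 to 787 and 1046 to 1074. The count higher in progenitors moved to 725 with a filter at 20 CPM, 2380 with a 2-fold rule, 481 among genes of equal length in both tables, 475 among separately counted genes, 307 among genes with no exonic base inside another span and 273 among those with under 10% of exonic bases inside another span and under 20% intron. The count higher in the input moved to 255 among equal-length genes and 400 in the last class. By rank, 10 and 40 points gave 1903 and 348 genes higher in progenitors and 1665 and 673 higher in the input, and equal-length genes 248 and 280; separately counted genes gave 483 and 772 with ranks taken within them. Fewer genes were compared in each restricted class. The share of calls toward progenitors was 51.7%, and 38.6% with DESeq2 size factors, 65.4% among equal-length genes and 32.3% among separately counted genes; the median log2 ratio over all genes compared was 0.64, and 0.14 with TMM and -0.06 with DESeq2.

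Over all genes compared, some list medians changed sign. Among equal-length genes 6 of 25 did, and with the immunoprecipitates 5 of 32 and 4 of 33. With DESeq2 size factors, a filter at 20 CPM or the intron trend removed, 3 of 33 did in each. Gut immunity went from 0.27 to -1.67 among separately counted genes. Given next are only the lists whose median was at least 4-fold from the input in all 3 controls. Digestive glycosidases, lipases and lysozymes gave 6.74 among equal-length genes, where the lysozyme genes inside other spans enter, and cytochrome P450 0.47. Ovary and germline gave -1.93 with DESeq2 size factors and -3.33 and -3.55 with the immunoprecipitates. Neuron gave -1.25 with TMM, -1.41 with DESeq2, -0.70 without mitochondrial and RNA-class genes, -2.25 at 1 CPM, and -6.05 and -5.10 with the immunoprecipitates. The mitochondrial genome gave 4.08 and 3.24 with them, over fewer genes than with the input, and small nuclear RNA -0.95 among separately counted genes. The cause was not tested otherwise. No called gene named by rule changed sign under the alternatives run. Uncalled ones did, 11 of 141 genes named by rule with TMM factors and 13 of 141 with DESeq2 size factors. With the immunoprecipitates 14 of 138 and 13 of 140 did. No paired analysis was possible because the input has 1 library and so shares only replicate number 1 with the controls. A gene at 0 in the input could have up to 0.650 CPM at this depth.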

Other observations

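Detoxification families leaned toward the input. Of all separately counted genes 16.5% were higher in the input and 7.88% in progenitors, at a median log2 ratio of 0.47. Of 28 separately counted cytochrome P450 genes 17 (60.7%) were higher in the input and 2 (7.14%) in progenitors, at a median of -4.61. Cyp9b2 had 4.58, 2.01 and 0.451 CPM in the controls and 461 CPM in the input, whereas Cyp305a1 had 165, 163 and 217 CPM against 9.97 CPM. UDP-glycosyltransferases gave 10 of 21 (47.6%) higher in the input and 1 (4.76%) in progenitors, at a median of -2.61. Ugt37A2 had no control count and 124 CPM in the input, at least 2444-fold lower in the controls, and Ugt302K1 had 13.9, 21.4 and 18.2 CPM against 1.52 CPM. Of 22 glutathione S-transferases 8 (36.4%) were higher in the input and 2 (9.09%) in progenitors, at a median of -0.50. The 2 were GstD3 at 25.8, 28.3 and 27.9 CPM against 1.08 CPM and GstZ1 at 13.9, 9.83 and 22.3 CPM against 1.52 CPM. In all 3 families the share higher in progenitors was near that of all separately counted genes. Many members are close copies.

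RNAs of the mitochondrial genome did not move as a block. The messenger RNA gene mt:CoI had 14983, 19145 and 13935 CPM in the controls and 10337 CPM in the input, a ratio of 1.55. The ribosomal RNA genes mt:lrRNA and mt:srRNA were 22.3-fold and 73.2-fold higher in the input, at 33736 and 21151 CPM. The transfer RNA gene mt:tRNA:Val-TAC had no control count and 2459 CPM in the input. Of 297 nuclear transfer RNA genes only 12 were compared. All 12 were higher in the input, against 16.5% of all separately counted genes. In 7 of the 12 no control had a count, so these entered the comparison through the input alone. The list median of the mitochondrial genome was -6.31 over the 35 separately counted genes compared with the input, of which 17 had no control count. Against the immunoprecipitates in place of the input it was 4.08 over 19 genes and 3.24 over 22, so the gene sets differ. dpr2, a gene of the Dpr cell-surface family, had no count in any control and 6136 counts in the input (1329 CPM), and 1934 and 2096 CPM in the immunoprecipitates; 93.6% of its span is intron. The snRNA genes U2:34ABa and U5:63BC had 29.2, 49.9 and 267 CPM and 25.7, 45.8 and 193 CPM in controls 1, 2 and 3, highest in control 3 in both.

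Control 2 was far below the other controls in a few genes of high level, picked after their values were seen. Of the separately counted genes, 37 were at least 4-fold lower in control 2 than in both others, against 80 for control 1 and 170 for control 3, and 146 were at least 4-fold higher in control 2. pAbp, the poly(A)-binding protein gene, had 7245, 499 and 4205 CPM in controls 1, 2 and 3 and 1951 CPM in the input, and rin had 1022, 85.3 and 654 CPM against 210 CPM. sty, a feedback inhibitor of receptor tyrosine kinases, had 1015, 166 and 596 CPM against 245 CPM, and Cam, the calmodulin gene, 427, 35.5 and 225 CPM against 859 CPM. The mean of the controls hides this spread: for pAbp, rin and sty control 2 lay below the input and the others above it.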
